A study of Mus musculus with 2 samples.

Results

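DNA replication and S-phase genes, the genes whose products license replication origins, unwind and copy DNA, supply its nucleotides and repackage the copies, were described in the germinal zone of the embryonic mouse cortex with and without the corepressor gene Rcor2. The 44 genes were given as a list of symbols by their roles, and all 44 were found among the 21896 genes of the data. RNA of the ventricular and subventricular zones (VZ-SVZ) was sequenced from 1 Rcor2fl/fl library and 1 Rcor2cko library, both of strain C57/BL6 at E13.5. Both groups carry the floxed Rcor2 allele on each chromosome, and both come from crosses of Rcor2fl/+NesCre mice. In Rcor2cko the floxed exons are removed by a Cre recombinase driven by Nestin, a gene of neural progenitors, so cells outside the neural lineage can keep the gene. By the study's naming a Rcor2fl/fl embryo with NesCre is Rcor2cko, so the controls lack the Cre transgene as well as the deletion. How many embryos entered a library is not given in the sources used here.

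A replication origin is licensed in G1 when the origin recognition complex, with Cdc6 and Cdt1, loads the MCM2-7 ring onto DNA. In S phase Cdc45 and GINS turn that ring into an active helicase, primase and the polymerases copy each strand behind it, and PCNA keeps the polymerases on their template. Many of these genes are transcribed by E2F factors as cells enter S phase. In the developing cortex the dividing cells are the radial glia of the VZ and the intermediate progenitors of the SVZ, whereas neurons have left the cycle.

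The replication genes were expressed at similar levels in both libraries. All 44 were above 1 FPKM (fragments per length of transcript and per number of fragments mapped, so a level per length) in both libraries, and their summed level was 912 FPKM in Rcor2fl/fl and 879 FPKM in Rcor2cko. Of the 44 genes, 33 were lower in Rcor2cko and 11 higher, whereas 57.6% of all genes tested were lower. The median log2 change, taken as the log2 ratio of (FPKM + 0.1) in Rcor2cko over Rcor2fl/fl, was -0.08, beside a median of -0.03 over the 11777 genes tested, those that reached 1 FPKM in either library. The extremes were Cdt1 at -0.36 and Gins1 at 0.34. No replication gene was more than 1.5-fold lower, as were 1.76% of all genes tested, or more than 1.5-fold higher, as were 3.79%. With 1 library per genotype there is no replicate check, so every difference below is between these libraries, and fewer cycling cells and less RNA per cell cannot be told apart.

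The knocked-out gene itself was read first as a check of the labels. Rcor2 was at 90.6 FPKM in Rcor2fl/fl and 55.7 FPKM in Rcor2cko, a log2 change of -0.70, so transcript remained in the library labelled Rcor2cko at a lower level. That level is for the whole gene and does not separate the floxed exons from the others. For Rcor2cko at E13.5 the paper reports no RNA peaks over the floxed exons, and depleted protein. The libraries also differed in sex-linked transcripts: Xist was at 177 FPKM in Rcor2fl/fl and 0.109 FPKM in Rcor2cko, and the Y-linked Eif2s3y was listed at 0 and at 19.8 FPKM. Sex and genotype cannot be told apart here, which touches Pola1, the 1 replication gene on the X chromosome. Scaling totals read from the FPKM steps were 18841684 fragments for Rcor2fl/fl and 25479853 for Rcor2cko. For 32 of the 44 genes, those with 1 transcript of at least 1000 nt, whole fragment counts were recovered in this way and gave an exact 95% interval of the log2 change. These intervals cover counting error only, not the spread between embryos or library preparations.

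Promoter sequence is shown first, since E2F control is what many of these genes are known for and since the letters bear on genes on both sides of the comparison. RefSeq windows on GRCm38.p6, from 250 bases before to 50 bases after a transcription start, were matched for 35 of the 44 genes. In each line below the capitals mark E2F letters (TTTCGCGC, TTTGGCGC, TTTCCCGC or TTTGCCGC, read on either strand), the sequence runs 5′ to 3′ on the strand of the gene, and positions in the text count from +1 at the start site. The first 4 genes encode MCM ring subunits, which were lower in Rcor2cko. Mcm2, a ring subunit that was also lower, held no E2F letters in its window, and no window was matched for Mcm4. Cdt1 had the lowest log2 change of the list, -0.36, and Pold1 was at -0.24. Pola2 at -0.32 and Tk1 at -0.30 were lower than Pold1 and held no E2F letters in their windows. Pole at -0.30 and Ccne2 at -0.27 were also lower than Pold1, and no window was matched for them. Rfc3, a clamp loader subunit, was higher in Rcor2cko by 0.09 on the log2 scale, with an interval from -0.08 to 0.26.
Mcm3, chr1:20820263-20820562, minus strand: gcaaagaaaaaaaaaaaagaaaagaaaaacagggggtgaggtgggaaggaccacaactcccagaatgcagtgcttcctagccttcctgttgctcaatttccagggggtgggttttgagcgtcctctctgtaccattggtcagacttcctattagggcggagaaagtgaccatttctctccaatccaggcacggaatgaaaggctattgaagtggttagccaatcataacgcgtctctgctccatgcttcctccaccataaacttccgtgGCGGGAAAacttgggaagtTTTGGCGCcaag
Mcm5, chr8:75109259-75109558, plus strand: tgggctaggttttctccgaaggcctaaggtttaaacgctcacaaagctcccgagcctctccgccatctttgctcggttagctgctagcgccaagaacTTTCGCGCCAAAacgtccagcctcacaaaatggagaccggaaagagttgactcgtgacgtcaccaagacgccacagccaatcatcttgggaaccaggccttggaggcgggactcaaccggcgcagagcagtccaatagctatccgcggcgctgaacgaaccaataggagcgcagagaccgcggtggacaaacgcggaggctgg
Mcm6, chr1:128359656-128359955, minus strand: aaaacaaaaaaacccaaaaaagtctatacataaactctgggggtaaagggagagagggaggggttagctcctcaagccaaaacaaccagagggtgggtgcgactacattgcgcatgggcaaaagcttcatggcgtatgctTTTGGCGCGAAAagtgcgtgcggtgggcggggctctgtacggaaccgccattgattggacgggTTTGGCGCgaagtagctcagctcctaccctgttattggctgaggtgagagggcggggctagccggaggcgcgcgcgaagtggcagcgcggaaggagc
Mcm7, chr5:138171834-138172133, minus strand: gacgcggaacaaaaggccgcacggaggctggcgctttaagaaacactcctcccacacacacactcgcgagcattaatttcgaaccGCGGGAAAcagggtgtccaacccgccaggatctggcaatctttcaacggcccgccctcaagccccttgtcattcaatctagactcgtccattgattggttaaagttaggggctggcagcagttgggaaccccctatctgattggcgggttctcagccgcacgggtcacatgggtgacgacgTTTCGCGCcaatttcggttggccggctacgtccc
Cdt1, chr8:122567765-122568064, plus strand: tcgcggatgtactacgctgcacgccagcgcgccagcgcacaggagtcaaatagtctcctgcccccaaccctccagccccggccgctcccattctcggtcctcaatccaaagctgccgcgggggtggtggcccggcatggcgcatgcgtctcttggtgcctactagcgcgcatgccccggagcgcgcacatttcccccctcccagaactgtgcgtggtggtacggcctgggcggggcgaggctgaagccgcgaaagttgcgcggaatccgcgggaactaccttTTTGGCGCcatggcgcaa
Pold1, chr7:44548766-44549065, minus strand: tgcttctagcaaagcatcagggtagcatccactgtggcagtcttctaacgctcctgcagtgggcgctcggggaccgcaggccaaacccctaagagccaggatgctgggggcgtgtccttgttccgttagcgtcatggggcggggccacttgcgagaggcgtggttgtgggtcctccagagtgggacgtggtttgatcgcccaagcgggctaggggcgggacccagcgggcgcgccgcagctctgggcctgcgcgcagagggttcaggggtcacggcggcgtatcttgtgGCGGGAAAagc
Rfc3, chr5:151651159-151651458, minus strand: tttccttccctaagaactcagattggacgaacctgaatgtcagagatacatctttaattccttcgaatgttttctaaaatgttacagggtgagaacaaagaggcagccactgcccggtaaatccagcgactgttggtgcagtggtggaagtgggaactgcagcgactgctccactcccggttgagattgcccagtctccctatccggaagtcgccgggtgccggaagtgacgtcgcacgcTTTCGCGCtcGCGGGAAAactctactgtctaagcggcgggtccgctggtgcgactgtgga

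The windows differ in where the letters sit. In Mcm6 they begin at -110, -106 and -47, the first pair overlapping as TTTGGCGCGAAA. The same kind of overlap is seen in Mcm5 at -153 and -149, written TTTCGCGCCAAA. Mcm3 holds them at +20 and +39, Cdt1 at +33 and Pold1 at +40, all just past the start. Mcm7 holds them at -165 and +17 in the window shown, and none in a further RefSeq window of the same gene. In Rfc3 one match begins at -10 and another at +1, the start itself.

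Of the 35 matched genes, 13 held E2F letters (37.1%), against 744 of 32851 windows in the RefSeq table (2.26%) and 414 of 8374 matched genes of those tested (4.94%). By role, the letters were found in 6 of 8 origin licensing genes, 3 of 6 polymerase and primase genes, 1 of 3 helicase activators, 1 of 5 clamp and clamp loader genes, 1 of 5 genes of single-strand binding and Okazaki fragment maturation, 1 of 3 chromatin genes, 0 of 4 nucleotide supply genes and 0 of 1 cyclin E genes. The genes beside those printed were Cdc6, Gins3, Lig1, Pola1, Pole2 and Uhrf1. The median log2 change was -0.11 for the 13 genes with the letters and -0.07 for the 22 without. CCAAT, the letters of NF-Y, stood in 22 of the 35 (62.9%), beside 37.4% of all windows and 43.99% of matched genes. CHR letters (TTTGAA or TTCGAA, either strand), known from late cell cycle genes, stood in 7 of the 35, beside 19.2% and 15.5%. A match describes letters in a window, not binding, and the absence of a match says nothing about a factor.

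The 44 genes spanned a wide range of levels, with the same genes at the top and at the bottom in both libraries. Pcna, the sliding clamp, was the highest at 135 FPKM in each library, above 97.5% of the genes tested. It was followed by Mcm7, at 72.7 FPKM in Rcor2fl/fl and 68.5 FPKM in Rcor2cko. Lowest was Ccne2, a cyclin E gene, at 2.76 FPKM in Rcor2fl/fl and 2.27 FPKM in Rcor2cko. The levels are drawn gene by gene in the plot of FPKM by role.

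**Figure D1:**
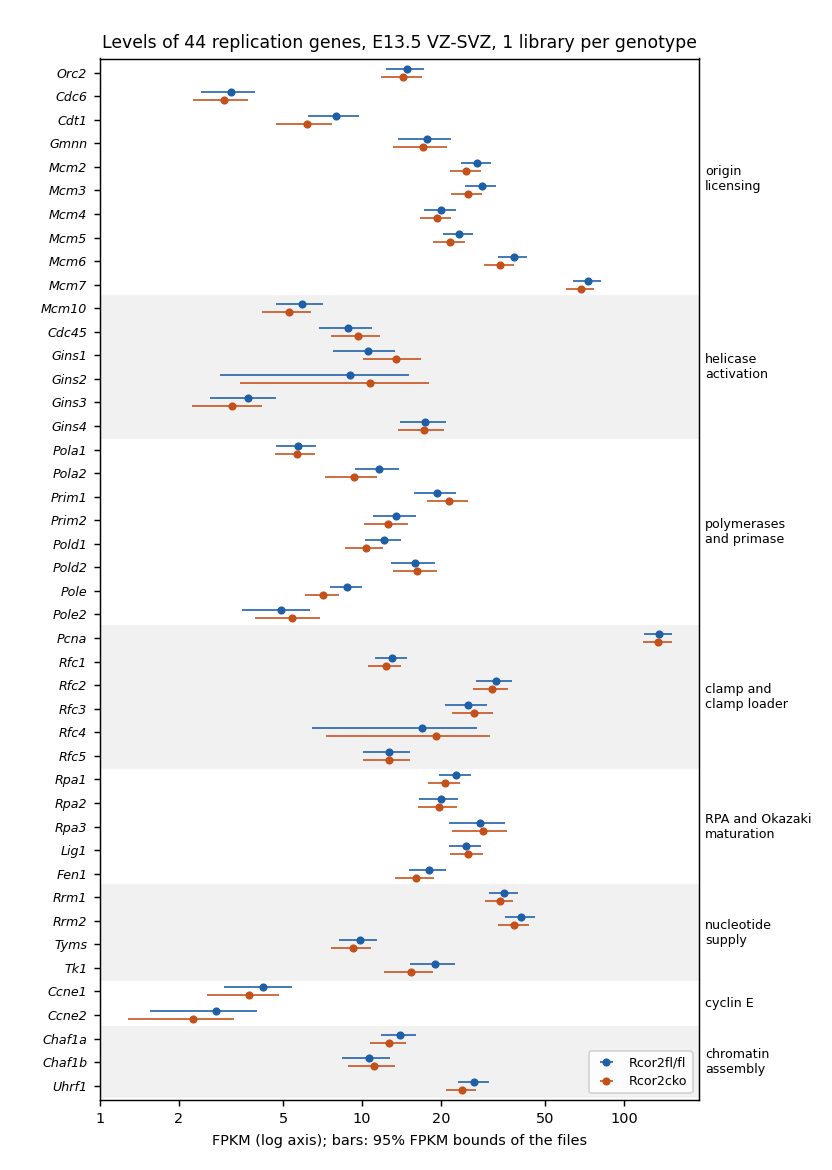
Level of each of the 44 replication genes in FPKM on a log axis, grouped by role, for the Rcor2fl/fl library (blue) and the Rcor2cko library (orange); bars are the 95% FPKM bounds given in the files. The bounds of the 2 libraries overlap for every gene, from Ccne2 at 2.27 FPKM to Pcna at 135 FPKM.

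Origin licensing genes of the list were lower in Rcor2cko in 10 of 10 cases under every scaling tried. Their median log2 change was -0.10, with a summed level of 254 FPKM in Rcor2fl/fl and 234 FPKM in Rcor2cko. Orc2 is the only subunit of the origin recognition complex among these 10. The other subunits, counted below with other initiation factors, were level or higher by log2 change: Orc1 0.00, Orc3 0.01, Orc4 0.07, Orc5 0.00 and Orc6 0.13. Orc1 was at only 1.19 FPKM in each library, with a counting interval from -0.49 to 0.49. That of Orc5 ran from -0.20 to 0.21, and Orc3, Orc4 and Orc6 had none. Among genes that reached 5 FPKM in either library, 60.6% were lower, beside 29 of the 40 replication genes at that level.

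Cdt1, the loading factor that brings the MCM ring to origins and is destroyed once S phase begins, was at 7.97 FPKM in Rcor2fl/fl and 6.19 FPKM in Rcor2cko. It lies at chr8:125091915-125097028 on the plus strand of mm9 and has 10 exons in its longest transcript. From 300 and 314 fragments, its log2 change of -0.36, the lowest of the 44 genes, had a counting interval from -0.60 to -0.13. Gmnn encodes geminin, the inhibitor of Cdt1, and was at 17.8 FPKM in Rcor2fl/fl and 17.1 FPKM in Rcor2cko. The log2 change of the inhibitor, -0.05, was close to the median of all genes tested. Cdc6, the ATPase that recruits Cdt1, was at 3.17 FPKM in Rcor2fl/fl and 2.97 FPKM in Rcor2cko. Orc2, a subunit of the origin recognition complex, was at 14.8 FPKM in Rcor2fl/fl and 14.3 FPKM in Rcor2cko.

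The MCM2-7 genes, which encode the ring that becomes the replicative helicase, were lower in 6 of 6 cases, with a median log2 change of -0.12. Mcm3 had the lowest change of the ring, from 28.6 FPKM in Rcor2fl/fl to 25.2 FPKM in Rcor2cko, a log2 change of -0.18 with a counting interval from -0.28 to -0.08. Mcm6 was at 37.8 FPKM in Rcor2fl/fl and 33.6 FPKM in Rcor2cko, a log2 change of -0.17 (interval -0.26 to -0.08). Mcm2, a target of the kinase that fires origins, was at 27.3 FPKM in Rcor2fl/fl and 24.98 FPKM in Rcor2cko, a log2 change of -0.13 (interval -0.22 to -0.03). Mcm5 was at 23.4 FPKM in Rcor2fl/fl and 21.7 FPKM in Rcor2cko, a log2 change of -0.11 (interval -0.21 to -0.01). For Mcm7, the most abundant ring subunit in RNA, the levels of 72.7 FPKM and 68.5 FPKM gave a log2 change of -0.09 (interval -0.16 to -0.02). Mcm4 was at 19.99 FPKM in Rcor2fl/fl and 19.2 FPKM in Rcor2cko, and its interval, from -0.16 to 0.05, was the only one of the ring that held 0. The 6 subunits thus differed by similar small amounts, and no interval of the ring reached 1.5-fold.

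Over all 44 genes, a counting interval lay below 0 for 10 of the 32 genes with recovered fragments, beside 23.2% of all 8460 genes tested in the same way. These 10 were Cdt1, Mcm2, Mcm3, Mcm5, Mcm6, Mcm7, Pold1, Pole, Fen1 and Tk1. No replication gene had an interval above 0, beside 14.0% of all genes. Shifting each interval by the median log2 change of genes above 1 FPKM in both libraries, -0.04, left 6 below 0 (Cdt1, Mcm3, Mcm6, Pold1, Pole and Tk1) and put 2 above 0 (Prim1 and Rfc4). The files' own 95% FPKM bounds, which are wider, overlapped between the libraries for all 44 genes, whereas they did not overlap for 3.47% of all genes tested. At the other end, the counting interval lay wholly inside 1.5-fold in either direction for 31 of the 32 genes, the exception being Cdt1, beside 82.1% of all genes tested.

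**Figure D2:**
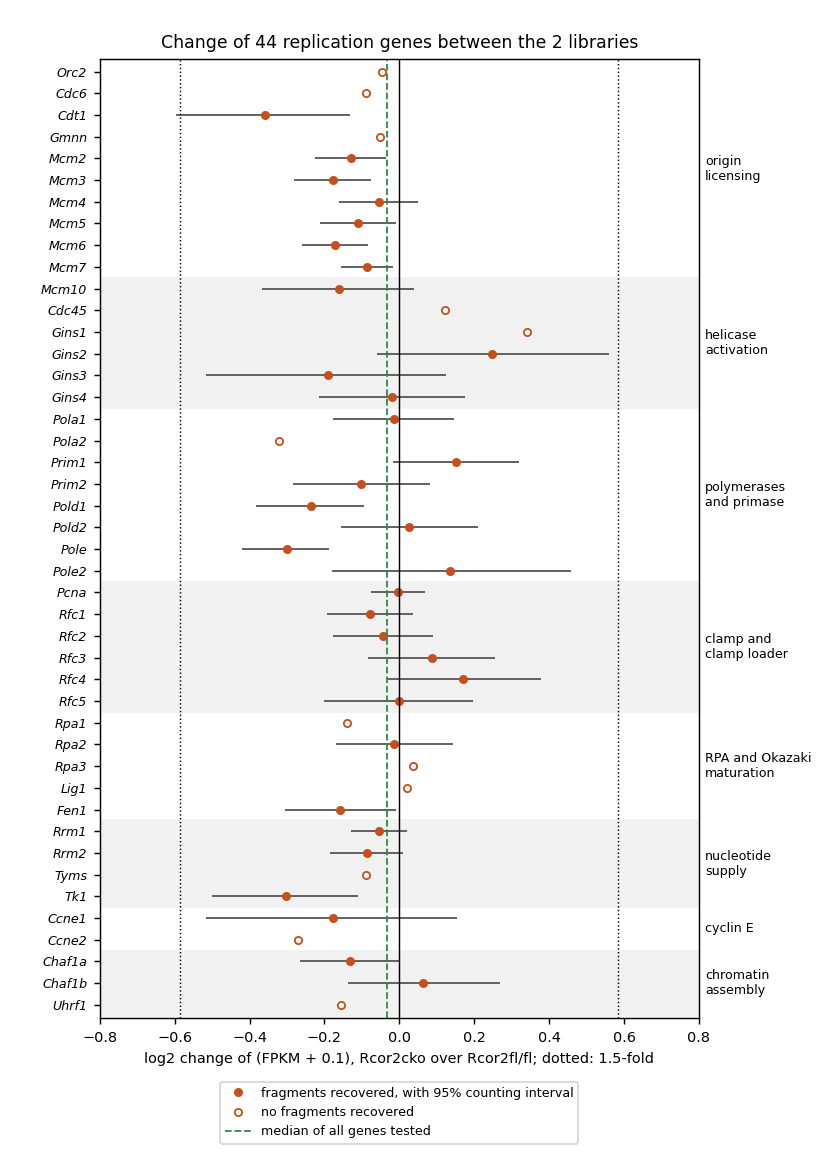
Log2 change of (FPKM + 0.1), Rcor2cko over Rcor2fl/fl, for each of the 44 genes by role; filled points have a 95% counting interval from recovered fragments, open points have none, the dashed line is the median of all genes tested and the dotted lines mark 1.5-fold. Every point lies between Cdt1 at -0.36 and Gins1 at 0.34, and all 10 licensing genes lie below 0.

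Helicase activation genes did not share a direction. Of the 6 genes, 3 were lower and 3 higher in Rcor2cko, with a median log2 change of 0.05, and Gins4 changed sign under other scalings. GINS, the 4-subunit complex that joins Cdc45 on the ring, held both the highest change of the list and a gene at -0.19. Gins1, at chr2:150731136-150757016 on the plus strand of mm9, was at 10.6 FPKM in Rcor2fl/fl and 13.4 FPKM in Rcor2cko, a log2 change of 0.34. No fragments could be recovered for Gins1, because it has more than 1 transcript in the Rcor2fl/fl data. Gins2 was at 8.99 FPKM in Rcor2fl/fl and 10.7 FPKM in Rcor2cko, a log2 change of 0.25 whose counting interval ran from -0.06 to 0.56. The files' bounds for Gins2 were among the widest of the list, at 68.2% and 68.0% of its FPKM to each side, and the locus the files give for it, 100210 nt, is longer than the annotated gene of 10672 nt. Gins3 was at 3.66 FPKM in Rcor2fl/fl and 3.19 FPKM in Rcor2cko, a log2 change of -0.19 (interval -0.52 to 0.12). Gins4 was nearly level, at 17.4 FPKM in Rcor2fl/fl and 17.2 FPKM in Rcor2cko. Cdc45, the factor that completes the helicase, was at 8.87 FPKM in Rcor2fl/fl and 9.67 FPKM in Rcor2cko, a log2 change of 0.12. Mcm10, which acts as the helicase starts to move, was at 5.90 FPKM in Rcor2fl/fl and 5.27 FPKM in Rcor2cko, a log2 change of -0.16 (interval -0.37 to 0.04).

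Subunits of one complex kept the same order of levels in both libraries for MCM2-7, GINS, RPA, CAF-1, ribonucleotide reductase and polymerases alpha, delta and epsilon. In the ring the order was Mcm7, Mcm6, Mcm3, Mcm2, Mcm5 and Mcm4, with the highest 3.64 times the lowest in Rcor2fl/fl and 3.56 times in Rcor2cko. Mcm3 and Mcm2, neighbours in that order, had overlapping counting intervals of their FPKM in each library, and the other neighbours did not. With the files' wider bounds, Mcm7 stood apart from Mcm6 and Mcm6 from Mcm3, and the remaining neighbours overlapped. In GINS the order was Gins4, Gins1, Gins2 and Gins3, with the highest 4.76 times the lowest in Rcor2fl/fl and 5.38 times in Rcor2cko. The files' bounds of Gins1 and Gins2, and of Gins2 and Gins3, overlapped in each library, and those of Gins4 and Gins1 in Rcor2cko. Counting intervals of Gins2 and Gins3 did not overlap, and Gins1 had none. In CAF-1 the counting intervals of the subunits overlapped in Rcor2cko. Replication factor C (RFC), the clamp loader, was the only complex whose order changed: Rfc1 and Rfc5, the lowest pair, exchanged places, and their intervals overlapped in each library. FPKM is a level of RNA per length, and says nothing of how much of each protein a complex holds.

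**Figure D3:**
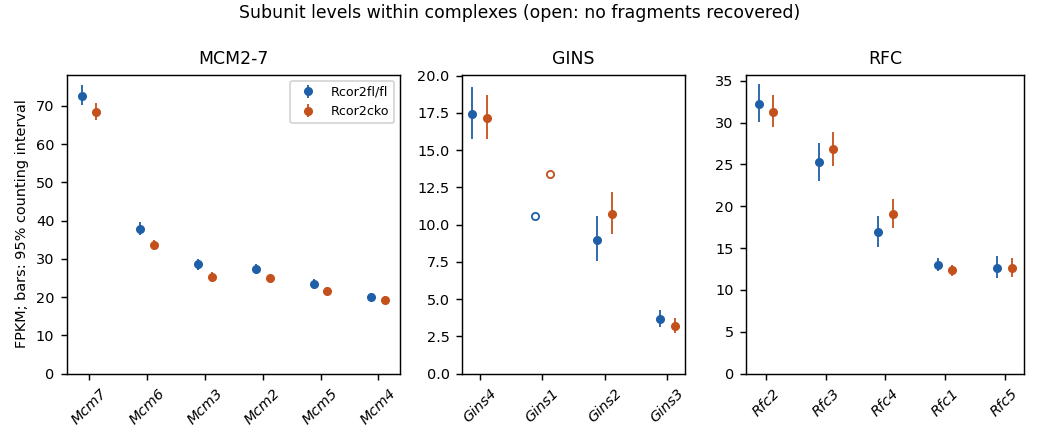
FPKM of the subunits of MCM2-7, GINS and RFC in the Rcor2fl/fl (blue) and Rcor2cko (orange) libraries, each panel starting at 0 and ordered by level in Rcor2fl/fl; bars are 95% counting intervals and open points have none. Within MCM2-7 each orange point lies below its blue neighbour, and Mcm7 stands at 72.7 and 68.5 FPKM above the other 5 subunits.

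The polymerase and primase genes were mixed, with 5 of 8 lower and a median log2 change of -0.06, and the sign of Pola1 turned under other scalings. Pole encodes the catalytic subunit of the leading strand polymerase and was at 8.74 FPKM in Rcor2fl/fl and 7.08 FPKM in Rcor2cko. Its log2 change was -0.30, with a counting interval from -0.42 to -0.19 on 1142 and 1250 fragments. Its partner subunit Pole2 was at 4.92 FPKM in Rcor2fl/fl and 5.41 FPKM in Rcor2cko, a log2 change of 0.14 (interval -0.18 to 0.46). Pold1, the catalytic subunit of the lagging strand polymerase, was at 12.2 FPKM in Rcor2fl/fl and 10.3 FPKM in Rcor2cko, a log2 change of -0.24 (interval -0.38 to -0.09). Pold2, its accessory subunit, was at 16.0 FPKM in Rcor2fl/fl and 16.3 FPKM in Rcor2cko. The counting intervals of Pold1 and Pold2, -0.38 to -0.09 and -0.16 to 0.21, overlapped.

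Polymerase alpha and primase lay down the primers that the other polymerases extend. Pola2, the accessory subunit of polymerase alpha, was at 11.6 FPKM in Rcor2fl/fl and 9.30 FPKM in Rcor2cko, a log2 change of -0.32 with no counting interval. Pola1, the catalytic subunit and the X-linked gene of the list, was nearly level at 5.70 FPKM in Rcor2fl/fl and 5.64 FPKM in Rcor2cko (interval -0.18 to 0.15). Prim1, the subunit that makes the RNA primer, was at 19.3 FPKM in Rcor2fl/fl and 21.5 FPKM in Rcor2cko, a log2 change of 0.15 (interval -0.02 to 0.32). Prim2, the large primase subunit, was at 13.52 FPKM in Rcor2fl/fl and 12.6 FPKM in Rcor2cko, a log2 change of -0.10 (interval -0.29 to 0.08).

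The clamp and its loader were level as a group: 4 of 6 were lower, of which Pcna and Rfc5 changed sign under other scalings, with a summed level of 235 FPKM in Rcor2fl/fl and 237 FPKM in Rcor2cko. Pcna, at chr2:132074898-132079050 on the minus strand of mm9, had 2712 and 3637 fragments and a counting interval from -0.07 to 0.07. It thus had one of the narrowest intervals of the list and held 0 near its middle. Rfc1, the large loader subunit, was at 13.03 FPKM in Rcor2fl/fl and 12.3 FPKM in Rcor2cko. Among the small subunits, Rfc2 was at 32.3 FPKM in Rcor2fl/fl and 31.3 FPKM in Rcor2cko, and its interval, from -0.18 to 0.09, held 0. Rfc3 was higher in Rcor2cko, at 25.3 FPKM and then 26.8 FPKM (interval -0.08 to 0.26). Rfc4, at 16.9 FPKM in Rcor2fl/fl and 19.1 FPKM in Rcor2cko, had a log2 change of 0.17 (interval -0.03 to 0.38), and the files' bounds for it ran to 62.0% and 61.6% of its FPKM. Rfc5 was at 12.6 FPKM in each library.

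Genes of single-strand binding and Okazaki fragment maturation, the joining of the short lagging strand pieces, were also close to level, with 3 of 5 lower and a median log2 change of -0.01, and the sign of Rpa2 turned under other scalings. Fen1, the nuclease that trims the flap between fragments, was at 18.0 FPKM in Rcor2fl/fl and 16.1 FPKM in Rcor2cko, a log2 change of -0.16 (interval -0.31 to -0.01). Lig1, the ligase that then seals the nick, was at 24.98 FPKM in Rcor2fl/fl and 25.3 FPKM in Rcor2cko. The trio that coats single-stranded DNA differed little. Rpa1, its large subunit, was at 22.9 FPKM in Rcor2fl/fl and 20.7 FPKM in Rcor2cko, a log2 change of -0.14. Rpa2 was at 19.9 FPKM in Rcor2fl/fl and 19.7 FPKM in Rcor2cko. Rpa3, the smallest subunit, was at 28.2 FPKM in Rcor2fl/fl and 28.9 FPKM in Rcor2cko.

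Nucleotide supply genes were lower in 4 of 4 cases, with a median log2 change of -0.09. Tk1, the thymidine kinase that salvages thymidine in S phase, was at 18.97 FPKM in Rcor2fl/fl and 15.4 FPKM in Rcor2cko, a log2 change of -0.30 (interval -0.50 to -0.11) on 420 and 457 fragments. The locus the files give for Tk1, 24390 nt, is longer than the annotated gene of 10567 nt. Rrm1, the large subunit of ribonucleotide reductase, was at 34.9 FPKM in Rcor2fl/fl and 33.6 FPKM in Rcor2cko (interval -0.13 to 0.02). Rrm2, the subunit whose supply rises in S phase, was at 40.4 FPKM in Rcor2fl/fl and 38.0 FPKM in Rcor2cko (interval -0.19 to 0.01). Tyms, which makes thymidylate, was at 9.79 FPKM in Rcor2fl/fl and 9.19 FPKM in Rcor2cko. Tk1 thus had the lowest log2 change of the group in RNA, and the reductase subunits were close to level.

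Cyclin E, which drives the entry into S phase with Cdk2, was measured at low levels. Ccne1 was at 4.19 FPKM in Rcor2fl/fl and 3.69 FPKM in Rcor2cko, a log2 change of -0.18 with a wide interval from -0.52 to 0.15 on 139 and 165 fragments. Ccne2, with levels of 2.76 FPKM and 2.27 FPKM, had a log2 change of -0.27 and no counting interval. The chromatin genes act behind the fork. Chaf1a, the large subunit of the CAF-1 histone chaperone, was at 13.9 FPKM in Rcor2fl/fl and 12.7 FPKM in Rcor2cko, a log2 change of -0.13 (interval -0.27 to 0.003). Chaf1b, its partner, was at 10.6 FPKM in Rcor2fl/fl and 11.1 FPKM in Rcor2cko, with an interval from -0.14 to 0.27. Uhrf1, which brings the maintenance methyltransferase to newly copied DNA, was at 26.8 FPKM in Rcor2fl/fl and 24.0 FPKM in Rcor2cko, a log2 change of -0.15.

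At a smaller fold, 5 of the 44 genes were more than 1.2-fold lower (Cdt1, Pola2, Pole, Tk1 and Ccne2), beside 9.98% of all genes tested. Gins1 alone was more than 1.2-fold higher, beside 10.4% of all genes. The quartiles of the 44 changes were -0.16 and 0.00, beside -0.14 and 0.06 over the genes that reached 5 FPKM in either library, and 22 of the 44 genes lay between the latter.

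**Figure D4:**
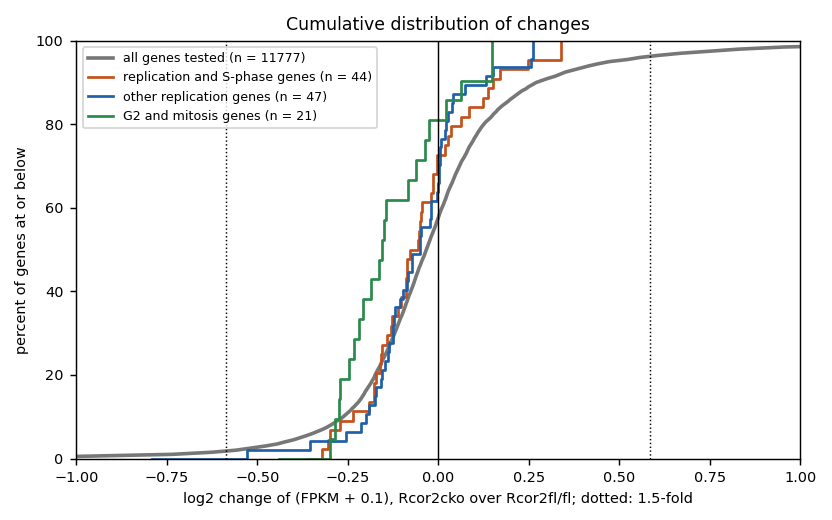
Percent of genes at or below each log2 change, Rcor2cko over Rcor2fl/fl, for all 11777 genes tested (grey), the 44 replication and S-phase genes (orange), 47 other replication genes (blue) and 21 G2 and mitosis genes (green); dotted lines mark 1.5-fold and the axis is limited to 1 on either side. The orange curve holds 33 of 44 genes below 0 and the grey curve 57.6%, and the orange curve stays between the dotted lines.

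Within the list, the change went with transcript length. Of the 26 genes with a longest transcript of at least 2000 nt, 24 were lower, with a median log2 change of -0.13. Of the 18 genes with a shorter transcript, 9 were lower, with a median of 0.01. All origin licensing genes but Gmnn are among the longer genes, and all clamp and loader genes but Rfc1 among the shorter. The licensing genes are thus counted in both patterns, and length and role were not separated. Spearman's rho between length and log2 change was -0.51 over the 44 genes, a description across genes that share the same 2 libraries and are not independent replicates. Over the 47 other replication genes rho was -0.11, and over the 8737 genes that reached 5 FPKM in either library it was -0.00. Among those 8737 genes the median was -0.04 in each length class. Of them, 3769 of 6158 genes of at least 2000 nt were lower, and 1529 of 2579 shorter genes. Tk1, at -0.30, was the lowest of the shorter genes of the list, and Cdc45 and Lig1 were the 2 longer genes that were higher in Rcor2cko.

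**Figure D5:**
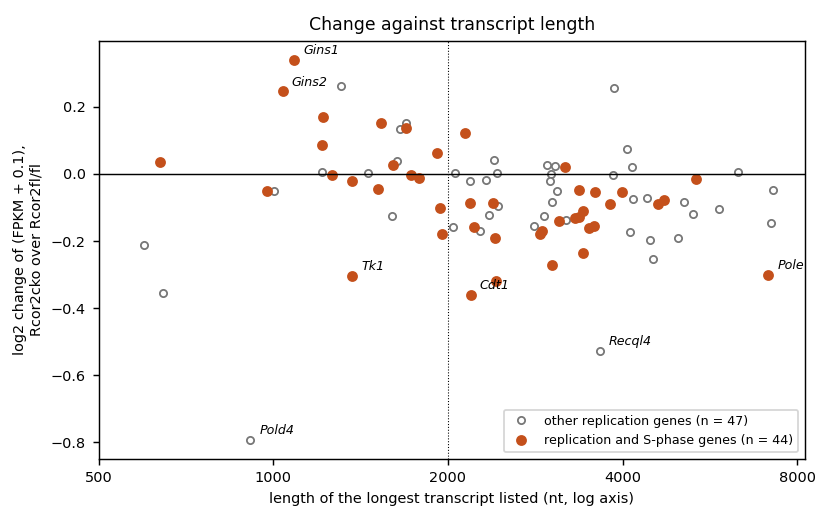
Log2 change of (FPKM + 0.1), Rcor2cko over Rcor2fl/fl, against the length of the longest transcript listed (nt, log axis) for the 44 replication and S-phase genes (filled) and 47 other replication genes (open); the dotted line marks 2000 nt. To its right 24 of 26 filled points lie below 0, and to its left 9 of 18. Of all genes that reached 5 FPKM in either library (not drawn), 3769 of 6158 longer ones were lower, and 1529 of 2579 shorter ones.

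A further 47 replication genes outside the list were read in the same way. All 47 were found, 2 of them under older symbols, and 31 were lower in Rcor2cko, beside 57.6% of all genes tested. Their median log2 change was -0.07, beside -0.03 over all genes tested. A counting interval lay below 0 for 8 of the 34 with recovered fragments, beside 23.2% of all genes tested in the same way. Other initiation factors were lower in 6 of 14 cases, with a median of 0.00 and changes from -0.53 to 0.13. Of the 9 initiation factors with recovered fragments, 3 had a counting interval below 0 and none above, beside 23.2% and 14.0% of all genes. The lowest was Recql4, a helicase of replication initiation, named here after its value was seen, at 3.22 FPKM in Rcor2fl/fl and 2.21 FPKM in Rcor2cko (interval -0.84 to -0.26). Other fork factors were lower in 14 of 19 cases (median -0.12), other nucleotide supply genes in 4 of 6 (median -0.08) and other chromatin replication genes in 7 of 8 (median -0.08). One gene of the 47 was past 1.5-fold: Pold4, the small subunit of polymerase delta, was at 6.27 FPKM in Rcor2fl/fl and 3.58 FPKM in Rcor2cko, a log2 change of -0.79. The files' bounds of Pold4, 4.14 to 8.41 FPKM and 2.19 to 4.98 FPKM, overlapped. The next lowest of at least 5 FPKM on average was Rnaseh2c, a subunit of the enzyme that removes ribonucleotides from DNA, at 31.9 FPKM in Rcor2fl/fl and 24.95 FPKM in Rcor2cko. Of the others named by the same rule, Pole3 and Timeless were lower by -0.21 and -0.20 on the log2 scale, and Orc4, Orc6 and Pole4 higher by 0.07, 0.13 and 0.15.

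Other gene lists were set beside the replication genes to show what else moved between the libraries. For the counts that follow, 57.6% of all genes tested were lower in Rcor2cko. G2 and mitosis genes, which act later in the same cycle, were lower in 18 of 21 cases, with a median log2 change of -0.16 and a summed level of 554 FPKM in Rcor2fl/fl and 498 FPKM in Rcor2cko. The E2F and Rb genes, which encode the regulators of S-phase transcription, were lower in 7 of 13 cases, with a median of -0.01. Among cell type markers, radial glia genes were lower in 6 of 10 (median -0.08) and intermediate progenitor genes in 3 of 6 (median 0.00). Of the postmitotic neuron genes found, 3 of 9 were lower (median 0.04). Housekeeping genes were lower in 10 of 12 cases, with a median of -0.13.

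Radial glia markers, summing to 903 FPKM in Rcor2fl/fl and 1043 FPKM in Rcor2cko, and intermediate progenitor markers, at 317 FPKM and 309 FPKM, were all above 0 in both libraries. The radial glia sum was carried by Fabp7, a lipid-binding protein of these cells, at 372 FPKM in Rcor2fl/fl and 539 FPKM in Rcor2cko. Hopx, the 1 marker of that list past 1.5-fold, was lower, at 12.8 FPKM in Rcor2fl/fl and 4.67 FPKM in Rcor2cko. Markers of some other cell types stood further apart. All 6 ventral GABAergic markers were more than 1.5-fold higher in Rcor2cko, beside 3.79% of all genes tested. Their summed level was 17.2 FPKM in Rcor2fl/fl and 52.7 FPKM in Rcor2cko, with none at 0 in either library. The 6 choroid plexus markers were higher in 6 of 6 cases, with a summed level of 0.792 FPKM in Rcor2fl/fl and 61.3 FPKM in Rcor2cko, most of it Ttr, and 2 of them, Ttr and Kl, were listed at 0 in Rcor2fl/fl. Only Ttr and Aqp1 of the 6 reached 1 FPKM in either library. In Rcor2cko Kl had 1 fragment, Kcnj13 15 and Folr1 20. Microglia markers were higher in 6 of 6 (15.1 FPKM and 23.0 FPKM in sum), endothelial and pericyte markers in 6 of 6 (36.1 FPKM and 41.6 FPKM), and erythroid markers lower in 5 of 6 (188 FPKM and 154 FPKM). The part of these differences in the small changes of the replication genes was not tested.

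Where a gene had more than 1 transcript, the split was given for the Rcor2fl/fl library alone. Lig1 came to 97.3% from 1 transcript, Tyms to 93.2%, Orc2 to 89.7%, Pola2 to 82.0% and Cdc45 to 74.8%. Ccne2 was divided between 2 transcripts at 58.5% and 41.5%, and Uhrf1 among 4, the largest at 60.0%. Cdc6, Gins1 and Rpa1 had all of their level in 1 transcript. Since the Rcor2cko values were deposited per gene, no change in transcript use could be compared between the libraries.

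The 44 genes were spread over 15 chromosomes, with 7 on chromosome 5 and 5 on chromosome 8. On mm9 the highest gene of the ring, Mcm7, lies at chr5:138605811-138613650 on the minus strand, and Pole on the same chromosome at chr5:110715325-110766493 on the plus strand. Coordinates of genes are on mm9 and those of the promoter windows above on GRCm38.p6, and the 2 builds are not interchangeable.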

How the data were processed

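RNA was isolated with RNeasy columns from dissected VZ-SVZ and sequenced after a stranded mRNA library preparation. The authors mapped reads to mm9, and the submitters' processing notes name TopHat 1.3.3 and Cufflinks 1.2.0. The deposited values are FPKM, each with a 95% lower and upper bound, per transcript for Rcor2fl/fl (27641 entries) and per gene for Rcor2cko (21896 entries). The status was other than OK in 281 and 93 entries. E15.5 was not analysed here.

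Transcripts of a gene were summed, the bounds by the root of the summed squares of their half-widths. Changes are log2 ratios of (FPKM + 0.1) over genes that reached 1 FPKM in either library, with no further normalization and no p-value. FPKM times transcript length less an offset (194 nt and 200.9 nt) came in steps of 1 fragment. Of 4015 and 3959 values up to 100 fragments, 99.3% and 99.4% were whole within 0.1. Where a gene had a single transcript of 1000 nt or more and status OK, exact 95% (Clopper-Pearson) intervals were computed from these fragments. No count model was run on them, since there is 1 library per genotype. For a transcript of 2000 nt, 3 fragments correspond to 0.0882 FPKM and 0.0654 FPKM. The steps were tested on simulated data. The members and lists were chosen with earlier results of these data known. Every member is named, and of the other replication genes those past 1.5-fold and the 3 largest changes each way among genes with a mean of at least 5 FPKM. Positions are from GENCODE vM1 on NCBIM37 (mm9). Alternatives are in the closing section. Python 3.11.15, numpy 2.4.6, pandas 2.3.3, scipy 1.17.1 and matplotlib 3.10.9 were used.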

Additional observations from a re-analysis of the deposited data

How the results depend on the processing

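The median log2 change over the list stayed below 0 under all 13 alternatives of pseudocount, scaling, filter and transcript handling. It was -0.0587 under total scaling, -0.0534 under upper-quartile scaling, -0.0453 under quantile normalization, -0.0547 for the 40 genes that reached 5 FPKM, -0.0476 with the highest transcript per gene (not like for like, since only the Rcor2fl/fl values are per transcript and lose their minor ones), and -0.0520 with mitochondrial, ribosomal protein, haemoglobin and histone genes left out before total scaling. No gene passed 1.5-fold in any of 558 values, while at 1.2-fold 5 were lower and 1 higher. Filters leave each gene's value as it was, so they could not move a gene past 1.5-fold. Dropping the filter, or asking for 1 FPKM in both libraries, kept all 44 genes, so those medians repeat the main one. The nearest value was Uhrf1 at 0.578 with the highest transcript per gene, where 1.5-fold is 0.585. The number of genes lower by any amount ranged from 28 to 33 of 44, and was 29 of 40 and 26 of 34 where the list was filtered by level or by number of transcripts. Without scaling, 57.6% of all genes tested were lower, and 60.6% of those that reached 5 FPKM. The shares under the scalings, which move all genes, are not given, so the scaled counts have no background beside them. Gins4, Pola1, Pcna, Rfc5 and Rpa2 changed sign under scalings. Orc2, Tyms, Ccne2 and Uhrf1 did so with the highest transcript per gene, where the loss of Rcor2fl/fl transcripts sets the direction. The count of 10 intervals below 0 was 0 with the files' FPKM bounds and 6 after the shift by the median of all genes, and that of intervals above 0 was then 2. No paired analysis was possible because each genotype was sequenced once. Depth limits the low genes most. Ccne1, with 139 fragments in Rcor2fl/fl, had an interval from -0.52 to 0.15, which held no change and also a 1.2-fold fall.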
